A study of Mus musculus with 6 samples.

Results

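The 10 genes described here encode ATF4 and regulators and enzymes of the stress response that it drives, namely *Atf4*, *Atf5*, *Ddit3*, *Cebpg*, *Trib3*, *Nupr1*, *Chac1*, *Asns*, *Sesn2* and *Ddit4*. They were taken by symbol from the authors' annotated table, and all 10 were among the 15903 genes with a total of at least 10 reads that were tested. Their difference between NaCl and control was known when they were chosen, and they were chosen by membership of the response after the falls of *Chac1*, *Trib3* and *Asns* in this contrast had been seen, so the values of this contrast describe the 10 genes and test nothing about them.

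RNA was sequenced from bone-marrow-derived macrophages (BMDMs), macrophages that M-CSF, a growth factor, drives to develop from marrow in culture. The marrow came from 3 *Cx3cr1*GFP mice on the C57BL/6J background, which carry a GFP sequence in the *Cx3cr1* locus in all groups, and the age of the mice was not given in the sources used here. Cells of each mouse were left unstimulated (control, n = 3) or given an excess of 62 mM NaCl for 24 h (NaCl, n = 3), so replicates 1, 2 and 3 of both groups come from mice 1, 2 and 3. The handling of the control cells was not described separately, and no library with an osmolarity control was analysed here. Reads counted on genes numbered between 8520433 and 20123570 in the control libraries and between 4088065 and 11610020 in the NaCl libraries, the lowest total being that of NaCl replicate 3, in which 1235 of the tested genes had no read against 79 to 309 in the others.

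ATF4 is a transcription factor of the basic leucine zipper family and the main effector of the integrated stress response. In this response the kinases HRI, PKR, PERK and GCN2, which sense heme shortage or oxidative stress, double-stranded RNA, unfolded protein in the endoplasmic reticulum and uncharged tRNA, phosphorylate the initiation factor eIF2, general translation slows, and the *Atf4* mRNA is translated more. ATF4 then raises genes for amino acid synthesis and uptake, tRNA charging and redox balance, and also genes such as *Ddit3* and *Trib3* that shape or end the response. Much of the control of ATF4 is at translation, and RNA levels alone are given here.

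ATF4 binds DNA with a C/EBP partner at a composite element, and the letters TGATGNAA were searched on both strands from 250 bases before to 50 bases after the annotated starts of the 10 genes. RefSeq promoters on GRCm38.p6 (the assembly also called mm10, which the labels name) were found for all 10 genes, 11 in number because *Atf5* has a pair of starts. The element was present in 4 of the 11 promoters, at 4 of the 10 genes, and in 3.97% of all 32851 mouse promoters of the same length. The 10 genes were chosen as members of the ATF4 response, so nothing is read from this difference. The sites are shown with 10 bases on either side, the element in capitals, and read 5′ to 3′ on the strand that carries the element:
*Chac1* (193 to 186 bases before the start, chr2:119351039-119351066, minus strand): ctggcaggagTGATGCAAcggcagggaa
*Trib3* (15 to 22 bases after the start, chr2:152344029-152344056, plus strand): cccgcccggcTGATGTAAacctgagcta
*Asns* (23 to 16 bases before the start, chr6:7693215-7693242, minus strand): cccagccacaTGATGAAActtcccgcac
*Nupr1* (110 to 103 bases before the start, chr7:126625563-126625590, plus strand): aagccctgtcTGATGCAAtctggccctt

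The form with C at the open base, TGATGCAA, which is contained in the first pattern, was present at *Chac1* and *Nupr1* and in 0.895% of all promoters. The cyclic AMP response element, TGACGTCA, was in none of the 11 promoters and in 1.79% of all, and the endoplasmic reticulum stress response element, the ERSE, was in none of the 11 and in 0.119% of all. Elements this rare would mostly be absent from any 11 promoters, so nothing is read from their absence. The median GC content of the 11 windows was 61.6%, against 52.4% over all promoters. For *Chac1*, *Asns* and *Nupr1* the element lies upstream of the start, and the 250 bases before each start are given on the strand of the gene, with the element in capitals. In *Chac1* and *Nupr1* it reads as its reverse complement on that strand:
*Chac1* (chr2:119350992-119351241, plus strand): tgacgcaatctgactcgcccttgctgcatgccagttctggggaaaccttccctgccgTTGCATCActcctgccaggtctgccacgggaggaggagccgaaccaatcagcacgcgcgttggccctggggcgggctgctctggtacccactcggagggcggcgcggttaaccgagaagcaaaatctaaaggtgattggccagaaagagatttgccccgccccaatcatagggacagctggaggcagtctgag
*Asns* (chr6:7693210-7693459, minus strand): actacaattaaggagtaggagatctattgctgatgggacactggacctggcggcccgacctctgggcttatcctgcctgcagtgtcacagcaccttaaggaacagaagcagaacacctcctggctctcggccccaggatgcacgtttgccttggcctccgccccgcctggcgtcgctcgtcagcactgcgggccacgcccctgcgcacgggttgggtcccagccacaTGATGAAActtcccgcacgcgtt
*Nupr1* (chr7:126625471-126625720, minus strand): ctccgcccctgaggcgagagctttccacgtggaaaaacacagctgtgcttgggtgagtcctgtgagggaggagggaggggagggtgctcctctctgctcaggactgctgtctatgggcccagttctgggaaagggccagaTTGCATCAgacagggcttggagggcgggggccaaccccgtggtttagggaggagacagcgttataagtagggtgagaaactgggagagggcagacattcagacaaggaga
A match of letters is a description of these windows and not a measured binding site.

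Expression was lower in NaCl than in control for each of the 10 genes by the fitted log2 fold change, with a median of -0.81, whereas the median over all tested genes was -0.0065 and 50.8% of them lay below 0. Values are CPM, the reads of a gene scaled to a common library total by TMM, and fold changes come from edgeR's quasi-likelihood fit over all 15903 genes, without a term for the mouse unless stated, with an adjusted p below 0.05 as the threshold. *Asns*, *Trib3*, *Chac1* and *Atf5* fell past this threshold, 4 of the 10 genes, where 0.176% of all tested genes were lower. With the mouse as a replicate block *Atf4* and *Sesn2* fell as well, which makes 6 of 10, where 4.30% of all tested genes were lower, and DESeq2 without the mouse called 5 of 10, which added *Atf4*, where 1.21% of the genes it tested were lower. DESeq2 with the block called the same 6 genes as edgeR with the block, where 3.06% of the genes it tested were lower. None of the 10 was higher in edgeR or DESeq2, with or without the block, and at an unadjusted p under 0.05 in edgeR 0 were higher and 6 lower, where 6.63% and 6.01% of all tested genes were. Higher calls made up 0.478% of all tested genes without the block, 4.60% with it, 1.91% in DESeq2 and 3.90% in DESeq2 with the block. In 6 genes (*Atf4*, *Atf5*, *Trib3*, *Chac1*, *Asns* and *Sesn2*) the 3 NaCl values lay below all 3 control values, a separation shown by 10.1% of all tested genes, and in none of the 10 did they lie above, as in 8.92% of all. Since the genes were picked with this contrast known, nothing is read from these counts.

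Leaving out 1 library moved the count of 4. The count of lower genes over all tested genes, 28 with all libraries, moved in the same direction except without control replicate 1. Among the 10 genes the count was 0 without NaCl replicate 2 or 3, where 0 of 15356 and 0 of 15755 tested genes were lower. At an unadjusted p under 0.05, 7 and 5 of the 10 genes were lower in these fits, beside 5.46% and 5.60% of all genes tested. The count was 1 (*Asns*) without control replicate 2 or 3, where no other tested gene was lower. It was 5 without control replicate 1 or NaCl replicate 1, where 25 of 15437 and 46 of 15476 tested genes were lower. When every gene with a total of at least 1 read was kept it was 6, as *Atf4* and *Sesn2* passed the threshold too. In that fit 300 of 24752 tested genes were lower. In cultures measured in bulk, fewer cells of a type and less RNA per cell cannot be told apart.

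**Figure D1:**
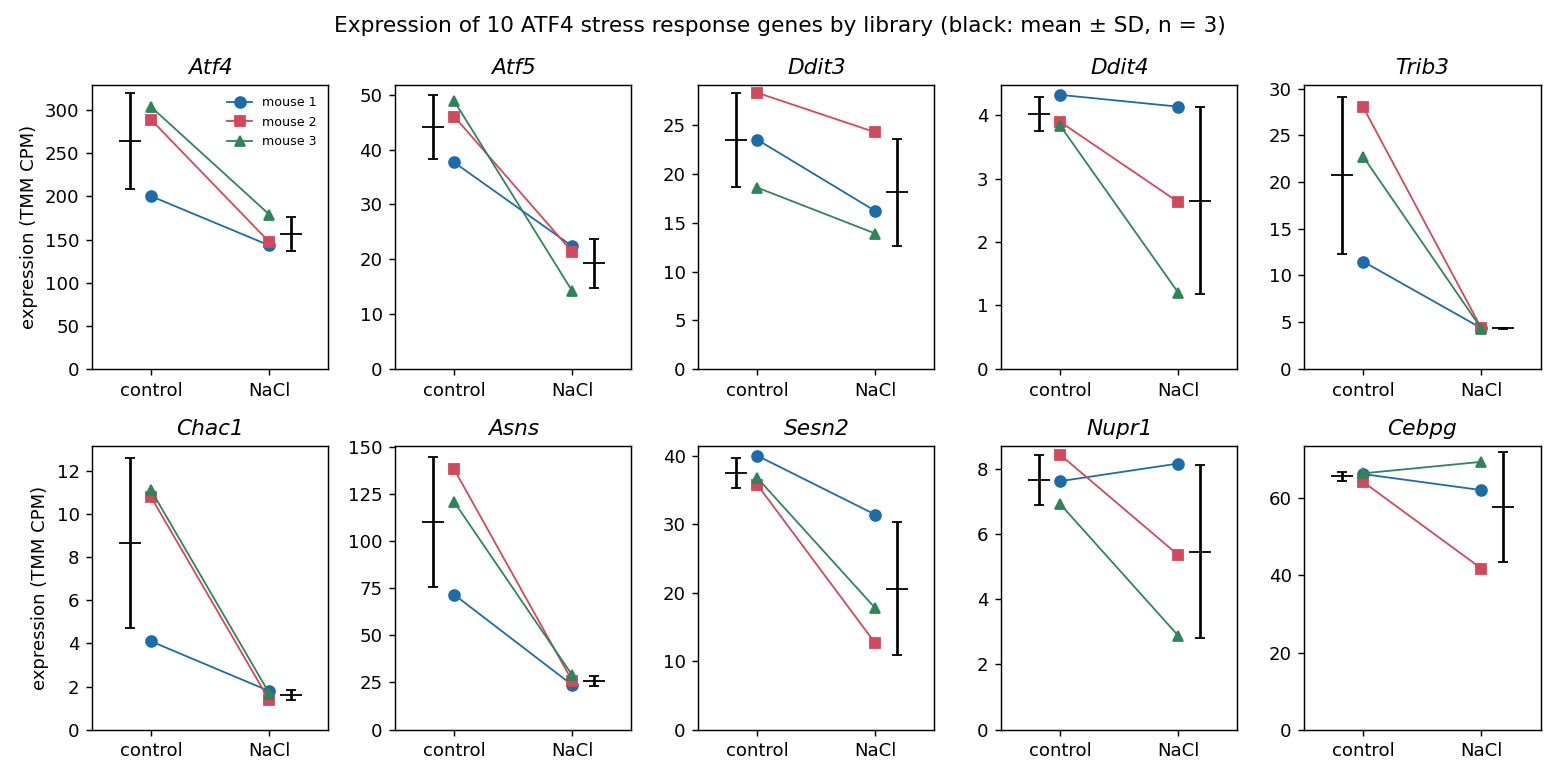
Expression of the 10 genes in each library. The y axis is TMM-scaled CPM from 0, lines join the control and NaCl cultures of mouse 1 (circle), mouse 2 (square) and mouse 3 (triangle), and black marks give the mean ± SD (n = 3). The NaCl values of *Trib3*, *Chac1* and *Asns* lie close together below spread control values, whereas those of *Ddit4*, *Nupr1* and *Sesn2* are the more spread.

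Among the transcription factors, *Atf4* and *Atf5* were lower in every NaCl library than in any control library, whereas *Ddit3* and *Cebpg* overlapped between the groups. *Atf4* (ENSMUSG00000042406.9, chromosome 15) was measured at 200.2, 289 and 304 CPM in control replicates 1, 2 and 3 and at 143, 147 and 179 CPM in NaCl replicates 1, 2 and 3. Control replicate 1 was the lowest of the controls and still lay above the highest NaCl library. The means were 264 ± 55.9 and 156 ± 19.6 CPM (SD, n = 3), the log2 fold change was -0.76 (SE 0.18), which missed the threshold, and with the replicate block it was -0.74 (SE 0.12), which passed it.

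*Atf5* (ENSMUSG00000038539.16, chromosome 7) encodes a basic leucine zipper factor that is itself a target of this response and acts in mitochondrial stress. It stood at 37.6, 46.0 and 48.8 CPM in the 3 controls and at 22.4, 21.3 and 14.1 CPM in the 3 NaCl libraries. The groups were apart, and NaCl replicate 3 was the lowest. From 44.2 ± 5.82 to 19.3 ± 4.47 CPM, *Atf5* fell by 1.18 on the log2 scale (SE 0.19), and the fit with the block gave -1.17 (SE 0.16).

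*Ddit3* (ENSMUSG00000025408.16, chromosome 10) encodes CHOP, a C/EBP family factor linked to cell death under long stress. Its expression was 23.5, 28.4 and 18.6 CPM in the controls and 16.2, 24.3 and 13.9 CPM with NaCl, and NaCl replicate 2 was above control replicates 1 and 3. Each NaCl culture was below the control culture of its own mouse, by log2 ratios of -0.54, -0.22 and -0.42 in mice 1, 2 and 3. The log2 fold change of -0.35 (SE 0.23) was past the threshold neither without nor with the block (-0.38, SE 0.15).

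*Cebpg* (ENSMUSG00000056216.10, chromosome 7), a C/EBP factor that pairs with ATF4 on composite elements, had the value nearest to 0 of the 10 genes. Controls gave 66.3, 64.2 and 66.5 CPM and NaCl libraries 62.1, 41.8 and 69.5 CPM. NaCl replicate 2 stood apart below the rest and NaCl replicate 3 was the highest of all 6. The log2 fold change was -0.19 (SE 0.18), and it was 0.0059 without NaCl replicate 2, so its direction rests on that library.

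Of the factors that feed back on the response or take part in it without binding DNA as leucine zippers, *Trib3* fell and *Nupr1* did not pass the test. *Trib3* (ENSMUSG00000032715.10, chromosome 2) encodes a pseudokinase that binds ATF4 and CHOP and dampens their activity. It was at 11.5, 28.0 and 22.7 CPM in the controls and at 4.36, 4.35 and 4.31 CPM in the NaCl libraries. Every NaCl value was below the lowest control, and the highest and lowest NaCl values differed 1.01-fold, against 2.44-fold among the controls. The last NaCl value rests on 18 reads, whose exact 95% Poisson interval of 2.56 to 6.81 CPM is far wider than the gap between the NaCl libraries (this and the other intervals cover counting error only). *Trib3* fell by 2.26 on the log2 scale (SE 0.32), to 4.34 ± 0.0249 CPM from 20.7 ± 8.43 CPM.

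*Nupr1* (ENSMUSG00000030717.10, chromosome 7), which encodes a small chromatin-associated protein induced by many stresses, read 7.62, 8.42 and 6.91 CPM in the controls and 8.16, 5.35 and 2.87 CPM with NaCl. NaCl replicate 1 lay within the control range and NaCl replicate 3 lowest, on 12 reads (95% Poisson interval 1.49 to 5.02 CPM). The log2 fold change of -0.42 (SE 0.31) did not pass the threshold, nor did -0.50 (SE 0.23) with the block. Its 3 mice differed in sign, with log2 ratios of 0.10, -0.66 and -1.27.

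The enzymes *Asns* and *Chac1* fell. *Asns* (ENSMUSG00000029752.13, chromosome 6) encodes asparagine synthetase, which makes asparagine from aspartate and glutamine and is a standard readout of amino acid shortage. Controls held 71.5, 138 and 121 CPM and NaCl libraries 23.6, 25.7 and 28.7 CPM, so that the highest NaCl library was far below the lowest control, replicate 1. *Asns* fell by 2.09 on the log2 scale (SE 0.23), from 110.0 ± 34.4 to 26.0 ± 2.60 CPM, and by 2.04 (SE 0.14) with the block. Of the 10 genes it was the one still past the threshold when control replicate 2 or 3 was left out.

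*Chac1* (ENSMUSG00000027313.4, chromosome 2) encodes a gamma-glutamylcyclotransferase that breaks down glutathione. It was at 4.09, 10.8 and 11.1 CPM in the controls and 1.79, 1.36 and 1.68 CPM with NaCl. These NaCl values rest on 16, 15 and 7 reads. The 95% Poisson interval was 1.02 to 2.90 CPM in NaCl replicate 1 and 0.674 to 3.46 CPM in NaCl replicate 3. Both overlap that of the lowest control, replicate 1 with 36 reads (2.87 to 5.67 CPM), whereas that of NaCl replicate 2 (0.761 to 2.24 CPM) does not. The log2 fold change of -2.46 (SE 0.41), from 8.66 ± 3.96 to 1.61 ± 0.222 CPM, was the lowest of the 10 genes, and with the block it was -2.35 (SE 0.29).

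*Sesn2* and *Ddit4* encode inhibitors of the growth kinase mTORC1, Sestrin2 as a leucine sensor acting through GATOR2 and REDD1 (the product of *Ddit4*) through the TSC complex. *Sesn2* (ENSMUSG00000028893.9, chromosome 4) gave 40.0, 35.8 and 36.8 CPM in the controls and 31.4, 12.6 and 17.7 CPM with NaCl. The groups were apart, with NaCl replicate 1 close under the controls and replicates 2 and 3 well below. Its log2 fold change of -0.86 (SE 0.28) missed the threshold, and with the block *Sesn2* fell by 0.94 (SE 0.17).

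*Ddit4* (ENSMUSG00000020108.5, chromosome 10) was at 4.32, 3.90 and 3.83 CPM in the controls and 4.13, 2.63 and 1.20 CPM with NaCl. NaCl replicate 1 was inside the control range, and the value of NaCl replicate 3 rests on 5 reads, with a 95% Poisson interval of 0.389 to 2.80 CPM. The log2 fold changes of -0.50 (SE 0.35) without and -0.57 (SE 0.28) with the block did not pass the threshold.

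**Figure D2:**
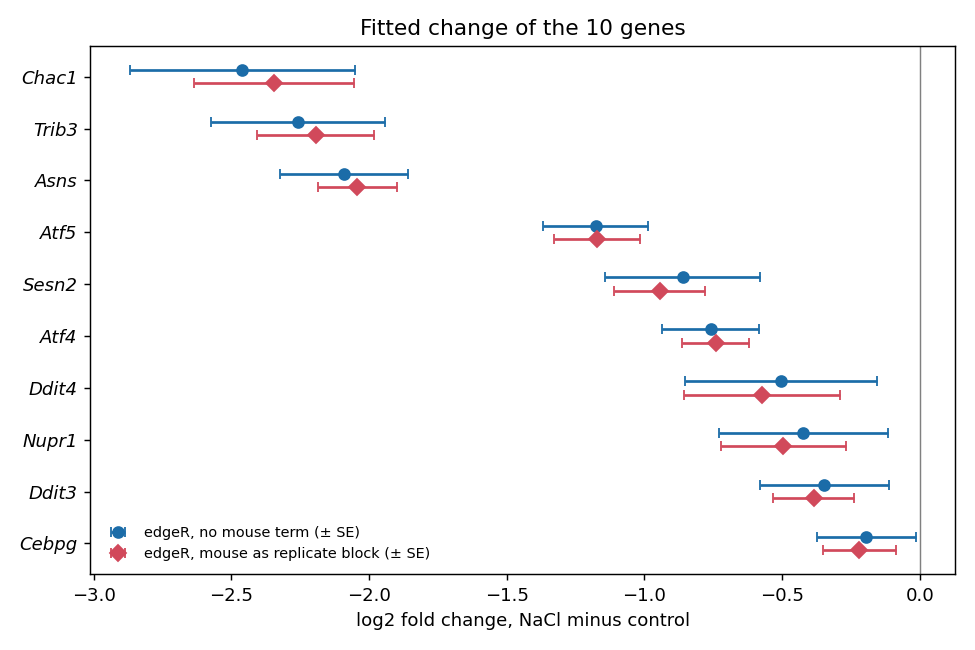
Fitted log2 fold change of each gene, NaCl minus control, on the x axis, with bars for ± SE, the SE being derived from the F statistic. Circles show edgeR without a mouse term and diamonds edgeR with the mouse as a replicate block. All 10 points lie below 0 in both fits, from -2.46 for *Chac1* to -0.19 for *Cebpg*, and the bars are shorter with the block.

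Within mice, 8 of the 10 genes were lower with NaCl in 3 of 3 mice, a pattern shown by 23.4% of all tested genes, and the exceptions were *Nupr1* (mouse 1) and *Cebpg* (mouse 3). The size differed between mice. The median log2 ratio of NaCl to control over the 10 genes was -0.51 in mouse 1, -1.04 in mouse 2 and -1.47 in mouse 3, whereas over the 14075 genes with reads in all libraries it lay between -0.017 and 0.0010. For 8 of the 10 genes the ratio was least low in mouse 1, which was so for 30.3% of those 14075 genes. *Trib3* had log2 ratios of -1.40, -2.69 and -2.40 in mice 1, 2 and 3. *Chac1* had -1.19, -2.99 and -2.73, and *Asns* -1.60, -2.43 and -2.07. In these 3 genes mouse 1 differed from the others through its control culture, which was the lowest control, while the NaCl cultures of the 3 mice were close. *Sesn2* (-0.35, -1.51 and -1.05) and *Ddit4* (-0.06, -0.57 and -1.68) differed through the NaCl cultures, their controls being close. The difference between mice was not tested, each mouse giving 1 culture per group.

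**Figure D3:**
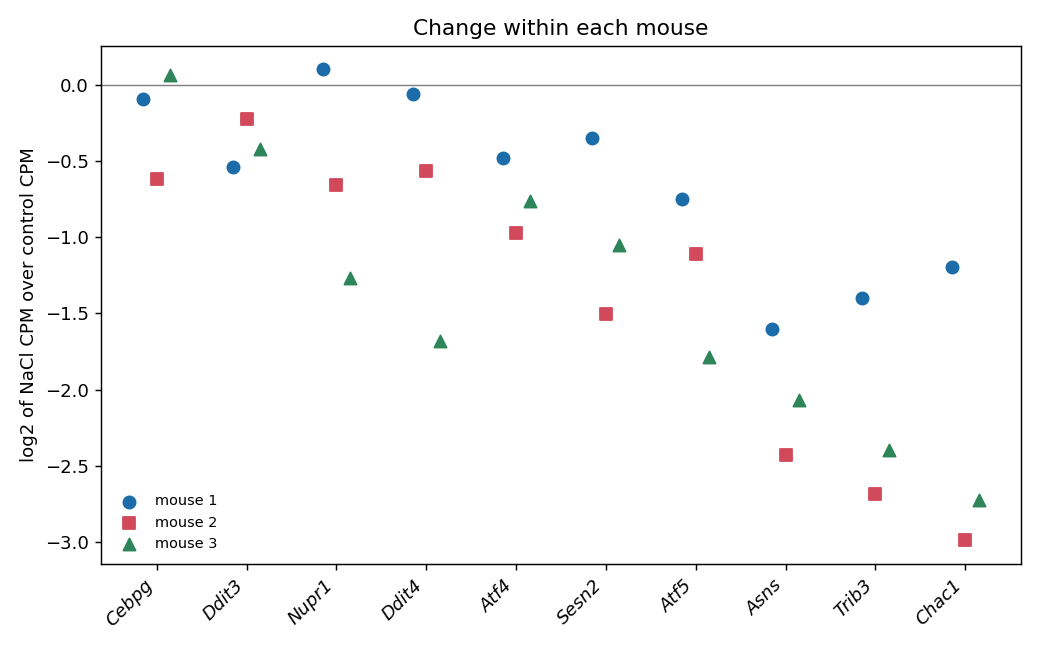
Log2 ratio of NaCl CPM to control CPM within each mouse (y axis) for each gene, ordered along the x axis by the fitted fold change. Mouse 1 (circles) lies highest in 8 of the 10 genes, and 2 points lie above 0, *Nupr1* in mouse 1 and *Cebpg* in mouse 3.

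The spread among replicates differed between genes. The highest control value was 2.71 times the lowest in *Chac1*, 2.44 times in *Trib3*, 1.93 times in *Asns* and 1.52 times in *Atf4*, with 1.31, 1.01, 1.22 and 1.25 times among the NaCl libraries. In *Ddit4*, *Nupr1*, *Sesn2* and *Cebpg* the controls spanned 1.13, 1.22, 1.12 and 1.04 times and the NaCl libraries 3.45, 2.84, 2.49 and 1.66 times. *Atf5* spanned 1.30 times in the controls and 1.58 times with NaCl, and *Ddit3* was spread in both groups, 1.52 and 1.75 times. Control replicate 1 was the lowest control in 5 of the 10 genes (*Atf4*, *Atf5*, *Trib3*, *Chac1* and *Asns*), against 40.7% of the tested genes. The low totals of NaCl replicate 3 move with the spread of *Ddit4* and *Nupr1*, and the part of depth in it was not tested.

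Per kilobase of annotated exon, *Atf4* had the highest level of the 10 genes in the controls, at 112 ± 23.7 CPM per kilobase, which placed it above 97.9% of the 15486 genes with a known length. *Asns* followed at 40.2 ± 12.6, *Atf5* at 22.2 ± 2.92 and *Ddit3* at 13.7 ± 2.84 CPM per kilobase. *Cebpg* (11.7 ± 0.223), *Sesn2* (10.8 ± 0.639), *Trib3* (9.75 ± 3.97), *Chac1* (5.29 ± 2.42), *Nupr1* (3.04 ± 0.301) and *Ddit4* (2.29 ± 0.151 CPM per kilobase) came next. From *Ddit3* down to *Nupr1* each gene overlapped its neighbour in the control libraries, while the steps from *Atf4* to *Ddit3* and from *Nupr1* to *Ddit4* were larger than the spread. With NaCl, *Atf4* was still the highest at 66.3 ± 8.33 CPM per kilobase. The level of *Asns* then was 9.50 ± 0.951 CPM per kilobase, which overlapped that of *Atf5* (9.66 ± 2.24) above it in the order and that of *Sesn2* (5.92 ± 2.80) below it, and *Chac1* had the lowest level at 0.982 ± 0.136 CPM per kilobase.

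The other genes of the pathway were read from 4 lists, of amino acid and one-carbon synthesis, amino acid transport, tRNA charging and further ATF4 targets, none of which holds any of the 10 genes. Of 49 genes listed 47 were tested, and 43 of the 47 had a log2 fold change below 0, with a median of -0.54 beside -0.0065 for all tested genes. Past the threshold 3 were lower and 0 higher in edgeR without the block, beside 0.176% and 0.478% of all tested genes. At an unadjusted p under 0.05, 26 were lower and 1 higher, beside 6.01% and 6.63% of all. In DESeq2 15 were lower and 0 higher, beside 1.21% and 1.91% of the genes it tested. With the block 28 of the 47 were lower and 1 was higher, beside 4.30% and 4.60% of all tested genes. The same shares stand beside the counts of each list below. These lists too were chosen with earlier results of these data known, so nothing is read from the counts of the 47 or of any list. Without the block the count of lower genes among the 47 was 9 without control replicate 1, where 25 of 15437 tested genes were lower. It was 0 without control replicate 2 or 3, where 1 of all tested genes was lower in each. It was also 0 without NaCl replicate 2 or 3, where 0 of all tested genes were. In the fits that gave 0, 19, 20, 27 and 22 were lower at an unadjusted p under 0.05. The shares of all genes tested in them were 3.3%, 4.16%, 5.46% and 5.6%. Control replicate 1 was the lowest control in 42 of the 47 genes, against 40.7% of all tested genes, as it was for *Atf4*, *Atf5*, *Trib3*, *Chac1* and *Asns*.

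In amino acid and one-carbon synthesis 12 of 13 tested genes lay below 0 (median -0.82), 1 was lower without the block and 9 with it. *Phgdh*, the first enzyme of serine synthesis, fell by 1.86 on the log2 scale (40.3 ± 10.8 CPM in control, 10.9 ± 2.40 CPM with NaCl, SE 0.24, adjusted p = 0.0139 in edgeR), close in size to that of *Asns*. *Got1*, an aspartate aminotransferase, had the highest value of the well-counted genes, at 0.03 (SE 0.12). Of the amino acid transporters 7 of 10 lay below 0 (median -0.20), and 1 was lower without and 4 with the block. *Slc1a4*, a carrier of alanine and serine, fell from 5.74 ± 1.56 to 1.27 ± 0.160 CPM (log2 fold change -2.20, SE 0.32, adjusted p = 0.0230 in edgeR). *Slc7a1*, a cationic amino acid transporter, was at -1.04 (SE 0.27) and passed the threshold with the block. *Slc38a2*, a sodium-coupled neutral amino acid transporter known to rise in hypertonic medium, was the 1 gene higher with the block, at 270.1 ± 37.8 CPM with NaCl and 180.2 ± 32.0 CPM in control (log2 fold change 0.58 without the block, SE 0.17).

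All 12 cytosolic tRNA synthetases lay below 0 (median -0.44), 0 passed without the block (8 at an unadjusted p under 0.05), 3 in DESeq2 and 9 with the block. They ranged from *Aars*, for alanine, at -0.74 (SE 0.17) to *Mars1*, for methionine, at -0.02 (SE 0.20). Of the further ATF4 targets 12 of 12 lay below 0 (median -0.47), 1 past the threshold without and 6 with the block. *Eif4ebp1*, which encodes an inhibitor of cap-dependent translation, fell from 74.2 ± 13.2 to 38.0 ± 5.32 CPM (log2 fold change -0.96, SE 0.17, adjusted p = 0.0455 in edgeR). *Atf3*, a stress factor of the ATF family, was at -0.14 (SE 0.14).

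Upstream of the 10 genes, 6 of 9 genes for eIF2 kinases, eIF2 phosphatase regulators and eIF2 partners lay below 0 (median -0.33), and 0 passed the threshold without the block, with 1 at an unadjusted p under 0.05 and 0 in DESeq2. *Eif2ak4*, which encodes GCN2, was at -0.38 (SE 0.13). It was lower with the block in edgeR (adjusted p = 0.0448) but not in DESeq2 with the block (adjusted p = 0.136). *Eif2ak1*, which encodes HRI, was at 0.24 (SE 0.12). *Eif2ak2* (PKR), *Eif2ak3* (PERK), *Ppp1r15a* and *Ppp1r15b*, the last pair being the phosphatase regulators, lay between -0.35 and -0.33. Of the ATF6 and XBP1 branch, the other transcriptional arm of the response to unfolded protein, 16 of 16 genes lay below 0 (median -0.36). None passed without the block (8 at an unadjusted p under 0.05), 1 did in DESeq2 and 7 with the block, from *Pdia6*, a disulfide isomerase, at -0.66 (SE 0.14) to *Atf6* at -0.08 (SE 0.13).

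Among 18 genes listed as paralogs of the 10 because they share a family symbol, 10 lay below 0 (median -0.06). Their relation by sequence was not checked. None was past the threshold without the block (1 at an unadjusted p under 0.05) or in DESeq2. *Sesn3* had the lowest value of the well-counted paralogs, at -0.27 (SE 0.27), beside -0.86 for *Sesn2*. *Cebpb* had the highest, at 0.70 (SE 0.23), and was higher with the block, beside -0.19 for *Cebpg*. Of 14 targets of hypoxia, p53 and FOXO, pathways that also act on *Ddit4* and *Sesn2*, 12 lay below 0 (median -0.34), 0 passed without the block (6 at an unadjusted p under 0.05), and 3 were lower in DESeq2 and 5 with the block. Of these 14 genes, 3 (*Vegfa*, *Cdkn1a* and *Bbc3*) also stand among the further ATF4 targets, and *Vegfa* and *Cdkn1a* are counted as lower in DESeq2 and with the block in both. Other lists overlap as well. *Ppp1r15a* is counted both among the further ATF4 targets and among the genes upstream. *Atf3* is counted among the further ATF4 targets and the paralogs, and *Atf6* in the ATF6 and XBP1 branch and the paralogs. *Bnip3*, a hypoxia target, was at -1.18 (SE 0.25) and *Fkbp5*, a FOXO and glucocorticoid target, at 0.37 (SE 0.36).

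**Figure D4:**
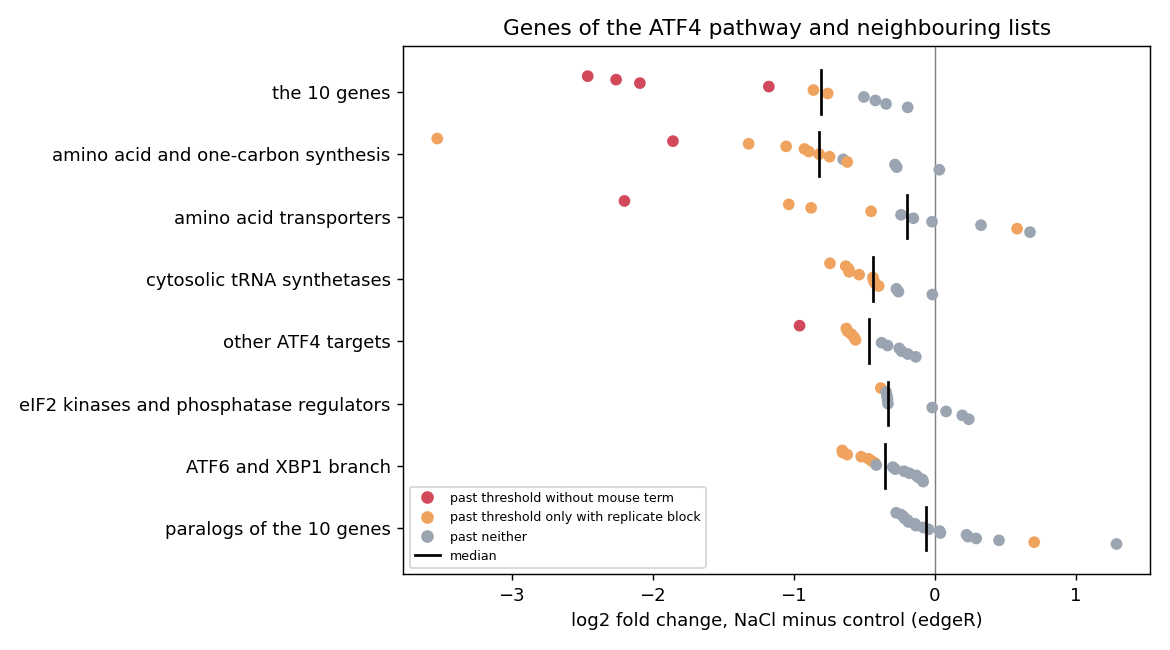
Log2 fold change, NaCl minus control, of every tested gene of the 10 and of 7 lists (x axis), each gene a point, with a black line at the median. Red genes passed the threshold without a mouse term, orange genes only with the replicate block, and gray genes in neither. The medians run from -0.82 in amino acid and one-carbon synthesis and -0.81 in the 10 genes to -0.06 in the paralogs.

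The 10 genes did not follow each other equally over the 6 libraries. Pearson's r of a gene's standardised log2 CPM with the mean of the other 9 was 0.96 for *Atf5*, 0.94 for *Trib3*, 0.93 for *Chac1* and 0.92 for *Asns*. It was 0.82 for *Sesn2*, 0.80 for *Atf4*, 0.68 for *Nupr1*, 0.67 for *Ddit4*, 0.46 for *Ddit3* and 0.31 for *Cebpg*. The 6 points share the difference between the groups, so these coefficients describe it as well. Of 9915 other genes with a mean of at least 50 reads, the most similar to the mean of the 10 over the 6 libraries were *Echs1* (r = 0.998), *Slc11a1* (0.992), *Nsun3* (0.990), *Capzb* (0.988) and *Eif4ebp1* (0.987). These are the highest of 9915 coefficients over 6 libraries, so no shared regulation is read from them. *Eif4ebp1* was lower without the block, and *Echs1*, *Slc11a1* and *Nsun3* only with it. *Capzb* passed in neither fit (log2 fold change -0.28).

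Few stretches of the annotated transcripts of the 10 genes were shared exactly with those of other genes, and inexact matches and unannotated sequence were not searched. Of all 75-base windows of their GENCODE M21 transcripts, a shared window was found in *Atf5* (0.553% of windows, with *Il4i1* and *Nup62*) and *Ddit3* (1.81%, with a second gene model of the same symbol), and 0% were shared in the other 8. Counting was without strand, and 4.11% of the exonic bases of *Atf5*, 10.9% of those of *Ddit3* and 1.37% of those of *Cebpg* overlapped other genes, in part on the opposite strand (*Mars* for *Ddit3*). Reads from these bases cannot be assigned, and their share of the reads was not measured.

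The cells carried macrophage RNA. All 8 macrophage markers were tested, 4 with a log2 fold change below 0 and 4 above (median 0.0077). *Lyz2*, for lysozyme, rose from 9817 ± 524 to 19148 ± 3609 CPM. *Csf1r*, for the M-CSF receptor, went from 2083 ± 148 to 3443 ± 369 CPM (log2 fold change 0.72, SE 0.14). It missed the threshold without the block and was higher with the block and in DESeq2. *Mertk*, an efferocytosis receptor, was at -0.97 (SE 0.23) and was lower with the block and in DESeq2. The summed level of the 8 was 18222 to 19755 CPM in control and 27403 to 34291 CPM in NaCl libraries, and most of that gap is *Lyz2*. Of the 8 monocyte markers (184 to 329 CPM in control, 204 to 388 CPM with NaCl) *Ifitm6* rose from 2.61 ± 0.211 to 28.3 ± 18.2 CPM (log2 fold change 3.45, SE 0.42, adjusted p = 0.00997 in edgeR), and *Chil3* was at -0.26 (SE 0.21). *F13a1* was at 0.48 (SE 0.30). It was higher with the block in edgeR (adjusted p = 0.0390) but not in DESeq2 with the block (adjusted p = 0.519). Of the 12 neutrophil markers (336 to 615 and 334 to 429 CPM) 11 lay below 0, none past the threshold without the block and 3 lower with it (*Csf3r*, *Ngp* and *Mpo*), from *Csf3r* at -0.90 (SE 0.30) to *Mmp8* at -0.16 (SE 0.17) among the well-counted ones. In DESeq2 with the block *Csf3r* was lower, whereas *Ngp* and *Mpo* were not past the threshold. The 9 dendritic cell markers summed to 4.94 to 5.80 and 3.63 to 4.58 CPM, with 6 below 0 and none past the threshold in either fit. Of B cell markers 2 of 5 (*Cd79a* and *Cd79b*, the latter at -0.17, SE 0.44), of erythroid markers 2 of 6 and of stromal markers 2 of 7 had at least 10 reads in all, and each of these lists summed to at most 10.4 CPM in any library. The part of these marker changes in the values of the 10 genes was not tested. The mitochondrial share of reads was 1.38% to 1.62% in control and 1.28% to 1.82% in NaCl libraries.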

How the data were processed

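RNA-sequencing of BMDMs from 3 mice gave 6 libraries. The authors trimmed 75-base single-end reads with fastp 0.20.0, aligned them with STAR 2.7.10b to mm10 and deposited the raw, unscaled counts of each gene and a normalized signal, made by dividing them by DESeq2 1.40.2 size factors, per the methods and the submitters' processing notes. This deposited signal equalled the raw count divided by 1 factor per library (largest relative deviation 5e-15), so the counts were used. Since the GENCODE release named in the methods (vM32) was made for a different build, genes are placed by chromosome only. Promoters are RefSeq sequences on GRCm38.p6, and exon lengths, matched for 97.4% of tested genes, and shared windows come from GENCODE M21.

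All genes whose counts added up to 10 or more entered edgeR 4.0.16 (glmQLFit, glmQLFTest, TMM) in R 4.3.3, with Benjamini-Hochberg adjustment over 15903 genes and a threshold of 0.05, without a term for the mouse (the methods name the comparison of NaCl with control in DESeq2 and state no further term). The SE given with an edgeR log2 fold change is its absolute value divided by the square root of the quasi-likelihood F statistic. It is not an SE reported by the fit. DESeq2 1.42.0 was an alternative. Log2 CPM used a prior count of 2. Scripts were tested on simulated data. Whether the mouse pairs the samples was checked: deviations of same-mouse libraries from their group means correlated with 0.43, 0.15 and 0.22 over genes for mice 1, 2 and 3, and the other pairs between -0.35 and 0.12. The labels name the same mouse in both groups, so a fit that holds the mouse as replicate block stands beside a result whose call it changes. The mice are separate animals, with 1 culture each per group.

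The 10 genes, the lists and the alternatives were chosen with earlier results of these data known. The genes named are the 10, the genes of each list past the threshold, the lowest and the highest log2 fold change of each list among genes with a mean of at least 50 counts, the eIF2 kinases with *Ppp1r15a* and *Ppp1r15b*, and the 5 most similar genes. The remaining names (genes that overlap the 10, genes shared by lists and further markers) were given after their values were seen. In the lists 10 tRNA synthetases and 1 paralog were matched through RefSeq synonyms, and *Cbs* and *Fgf21* had under 10 counts. Alternatives were DESeq2, the replicate block, other scalings and filters, thinning to 4088065 counts and leaving out each library or mouse. Python 3.11.15, pandas 2.3.3, numpy 2.4.6 and matplotlib 3.10.9 were used. Experiments of the study other than RNA-sequencing were not analysed here.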

Additional observations from a re-analysis of the deposited data

How the results depend on the processing

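Of the 10 genes, 4 were lower, and with every library thinned to 4088065 counts 2 were (*Trib3* and *Asns*). Keeping any gene with 1 count gave 6 (adding *Atf4* and *Sesn2*), leaving out 1 library gave 0 to 5, and the replicate block without mouse 2 gave 7. None was higher in any fit. The 3 lower genes of the other 47 pathway genes became 15 in DESeq2, 21 with that filter, 23 with the replicate block in DESeq2, 28 with the replicate block in edgeR and 18 with that block and thinning. With the block and without mouse 1, 2 or 3 they were 22, 26 and 20, and without single libraries 0 to 9. Higher pathway genes, 0, became 1 with that filter and with the block in edgeR, in DESeq2 and after thinning, and 2 with the block without mouse 2. Over all genes, 76 higher and 28 lower became 245 and 155 in DESeq2, 362 and 300 with that filter, 732 and 684 with the block in edgeR, 452 and 354 with the block in DESeq2, 36 and 13 after thinning, and 317 and 209 with the block and thinning. They were 469 and 417, 758 and 661, and 715 and 585 with the block without mouse 1, 2 and 3, and 8 to 123 higher and 0 to 46 lower without single libraries. The 1 direction that turned was that of *Cebpg*, from -0.34 without NaCl replicate 3 to 0.0059 without NaCl replicate 2. The cause of these changes was not tested.

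Each group has 3 libraries, and in NaCl replicate 3, with 4088065 counts, *Ddit4*, *Chac1* and *Nupr1* rest on 5, 7 and 12 reads. Where a fit leaves a group with 2 libraries, the spread is pooled over both groups. The block fits without a mouse have 2 libraries in each group and also hold a mouse term. Little spread per gene is then left to estimate, so their calls lean on the spread shared over genes, and nothing is read from their counts. Median-ratio size factors, total count scaling and filterByExpr gave the same counts of lower genes among the 10 as TMM, and no scaling moved the median of all genes by over 0.1.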
